A study of Homo sapiens with 27 samples.

Results

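KLK3, KLK2 and KLK4 encode the 3 kallikrein-related serine proteases that luminal cells of the human prostate secrete in quantity. They were found by their gene symbols in the deposited expression table and are 3 of its 20987 genes. All 3 passed the filter on low values in each comparison. Expression was measured by RNA sequencing of poly(A)-selected RNA in 27 libraries from 3 established human prostate cancer cell lines. Each line gave 9 libraries, 3 with the vehicle DMSO, 3 with 100 nM and 3 with 500 nM of IPI-9119, which blocks FASN, the fatty acid synthase that makes palmitate. Exposure lasted 6 days and the medium was not replaced.

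The groups were therefore LNCaP95 with DMSO, 100 nM or 500 nM, 22Rv1 with DMSO, 100 nM or 500 nM, and LNCaP with DMSO, 100 nM or 500 nM. LNCaP came from a lymph node metastasis and is labelled androgen sensitive. 22Rv1 came from a relapsed xenograft and LNCaP95 is a derivative of LNCaP grown without androgen, and both are labelled castration resistant. Each line is 1 cultured cell population, and no genotype was altered in any group. The labels do not say that replicates were separate cultures, so p-values measure the spread between libraries, which may be technical.

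Kallikreins are made as inactive precursors and become active when a short leader is cut off. KLK2 and KLK4 are known to cut the leader of the KLK3 precursor, and the KLK3 product, prostate-specific antigen (PSA), liquefies semen by cutting semenogelins and is measured in blood as a marker of prostate cancer. All 3 genes are known to be induced by androgen in prostate cells, through palindromic response elements at promoters and at distal enhancers. KLK3 and KLK2 are close paralogs that lie side by side, and KLK4 lies nearby on the opposite strand.

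The promoters of the 3 genes are shown because KLK3 and KLK2 both fell in LNCaP while KLK4 moved less. They are the RefSeq windows from 250 bases before to 50 bases after the annotated start, in GRCh38.p14 (KLK3 chr19:50854665-50854964, plus strand; KLK2 chr19:50873189-50873488, plus strand; KLK4 chr19:50911346-50911645, minus strand), written 5′ to 3′ along each gene. Capitals mark matches, on either strand, to the TATA motif TATAA or to a loose androgen response element, written as GNACA, any 4 bases and GTNC, where N is any base.
KLK3: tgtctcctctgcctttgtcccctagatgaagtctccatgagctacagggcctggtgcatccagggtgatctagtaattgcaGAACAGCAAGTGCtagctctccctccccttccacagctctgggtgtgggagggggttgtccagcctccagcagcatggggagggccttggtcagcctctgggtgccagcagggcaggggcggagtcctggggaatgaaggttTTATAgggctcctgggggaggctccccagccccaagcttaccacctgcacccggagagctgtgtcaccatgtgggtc
KLK2: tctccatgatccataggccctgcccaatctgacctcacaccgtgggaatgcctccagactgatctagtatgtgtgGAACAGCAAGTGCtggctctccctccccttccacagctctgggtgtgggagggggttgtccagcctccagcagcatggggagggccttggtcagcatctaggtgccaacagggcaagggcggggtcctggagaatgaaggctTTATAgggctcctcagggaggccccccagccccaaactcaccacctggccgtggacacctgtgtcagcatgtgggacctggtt
KLK4: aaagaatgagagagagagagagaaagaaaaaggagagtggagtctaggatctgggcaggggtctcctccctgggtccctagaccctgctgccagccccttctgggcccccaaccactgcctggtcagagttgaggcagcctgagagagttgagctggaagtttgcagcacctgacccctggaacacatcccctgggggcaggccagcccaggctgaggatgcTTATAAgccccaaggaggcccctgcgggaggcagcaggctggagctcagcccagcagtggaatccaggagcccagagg

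The KLK3 and KLK2 windows each held 1 match to the response element, and its 13 letters were identical in both. The match began 169 bases before the start in KLK3 and 175 bases before it in KLK2. The KLK4 window held no match to these letters, nor did the window of a second annotated KLK4 start (chr19:50910689-50910988, minus strand). Over all 35116 promoters of the same length in the table, 2.19% held such a match. A TATA match on the opposite strand lay 27 bases before the start in KLK3 and 33 bases before it in KLK2. KLK4 held a match on its own strand, 27 bases before the start, and a second on the opposite strand overlapped it. TATA matches were found in 20.4% of promoters. The single-arm androgen motif AGAACA, found in 14.8% of promoters, matched in KLK3 alone of the 4 windows, overlapping the response element. A stricter element, written as GNACA, any 3 bases and TGTNC and found in 0.39% of promoters, and the forkhead motif TGTTTNC, found in 6318 of the promoters, matched in none of the 4 windows. The KLK3 and KLK2 windows aligned with 80.2% identity, against 49.6% for KLK3 with KLK4 and 49.7% for KLK2 with KLK4. A match describes these letters and is not evidence of binding.

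**Figure D1:**
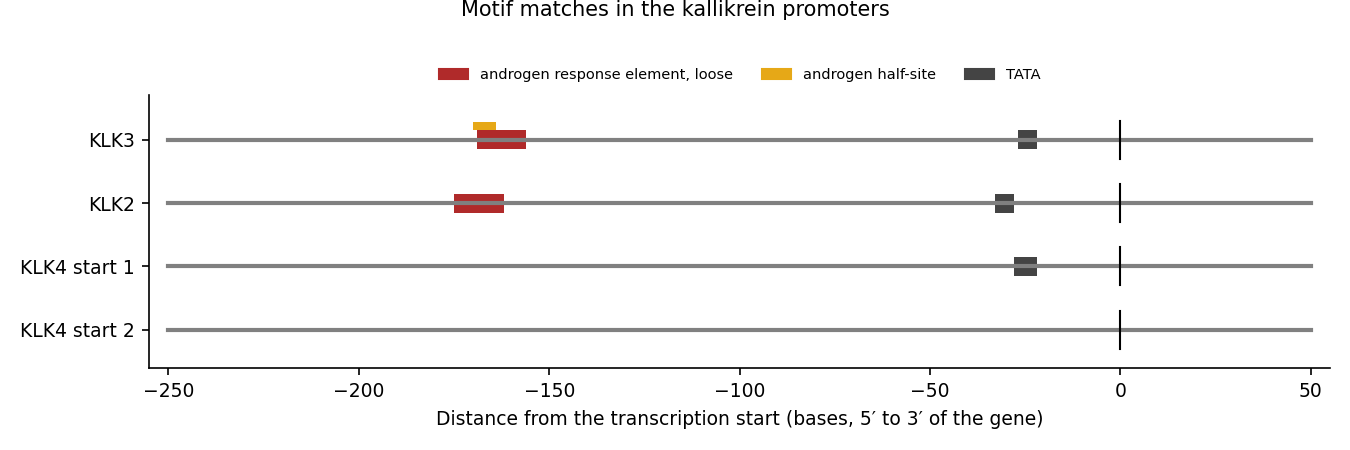
Motif matches in the RefSeq promoter windows, by distance in bases from the annotated start (vertical ticks), drawn as coloured blocks for KLK3, KLK2 and both KLK4 starts. The response element match lies 169 bases before the start in KLK3 and 175 bases before it in KLK2, and neither KLK4 window holds one.

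Libraries held 14757874 to 26578881 reads in genes. KLK3 was covered by 314 to 13539 reads per library, KLK2 by 255 to 5151 and KLK4 by 1167 to 6785. Values below are the deposited normalised counts, that is, reads divided by a size factor of the library, and log2 fold changes are on the log2(value + 1) scale with their standard errors. The luminal epithelial identity of the lines was checked with 7 markers, all of which had a normalised count of 10 or more in every library of each line. None of 4 basal markers reached 10 in every library of any line. Of 6 neuroendocrine markers, 4 reached 10 in every 22Rv1 library, against 1 in LNCaP95 and 1 in LNCaP. Of 6 stromal markers, 3 reached 10 in every LNCaP95 library, 3 in every 22Rv1 library and 2 in every LNCaP library. Of 4 blood cell markers, 1 did so in each line. The lines are bulk populations, so fewer expressing cells and less RNA per cell cannot be told apart. KLK3 and KLK2 are similar in sequence. Of the 36-base windows of the longest coding KLK3 transcript, 38 of 1629 (2.33%) also occur exactly in some annotated KLK2 transcript. None of the 75-base windows do, so the values of KLK3 and KLK2 may share a few reads. The sources used here do not give the strand setting of the counting, but no other annotated gene overlaps the exons of the 3 genes.

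Without drug, the 3 lines differed widely in kallikrein expression and in which kallikrein led. KLK3 had 854, 751 and 900 normalised counts in the LNCaP95 DMSO libraries, 625, 568 and 494 in 22Rv1 and 12816, 12836 and 11703 in LNCaP. The LNCaP libraries were all far above the rest, and the lines did not overlap. KLK2 had 296, 351 and 307 in LNCaP95, 928, 857 and 743 in 22Rv1 and 5945, 2840 and 2687 in LNCaP. KLK2 was lowest in LNCaP95 and highest in LNCaP, again with no overlap, and LNCaP replicate 1 stood well above the other LNCaP libraries. KLK4 had 1027, 944 and 1503 in LNCaP95, 5274, 4497 and 4604 in 22Rv1 and 4033, 3375 and 3249 in LNCaP. KLK4 was thus highest in 22Rv1, the line with the least KLK3. The summed level of the neuroendocrine markers also differed with DMSO. It was 535 to 691 in LNCaP95, 5170.3 to 5759 in 22Rv1 and 238 to 471 in LNCaP. That of the stromal markers was 1825 to 2265 in LNCaP95, 373 to 408 in 22Rv1 and 276 to 320 in LNCaP. That of the blood cell markers was 87.3 to 108 in LNCaP95, 18.1 to 40.2 in 22Rv1 and 10.99 to 28.4 in LNCaP. The part of these marker levels in the kallikrein differences was not tested.

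All 9 of these line contrasts were called in a fit of all 27 libraries (limma, adjusted p under 0.05). In 22Rv1 against LNCaP, where 74.8% of 14026 genes were called and groups lay apart in 38.8% (22Rv1 higher) and 35.1% (22Rv1 lower), KLK3 differed by -4.47 ± 0.181 on the log2 scale (adjusted p = 1.07e-16), KLK2 by -2.09 ± 0.221 and KLK4 by 0.43 ± 0.168 (adjusted p = 0.0227). In LNCaP95 against LNCaP, where 66.5% of genes were called and 33.7% lay apart with LNCaP95 lower, KLK3 differed by -3.90 ± 0.181, KLK2 by -3.49 ± 0.221 and KLK4 by -1.64 ± 0.168. In LNCaP95 against 22Rv1, where 76.1% were called and groups lay apart in 36.4% (LNCaP95 higher) and 41.8% (LNCaP95 lower), KLK3 was higher in LNCaP95 by 0.57 ± 0.181 (adjusted p = 0.00644), whereas KLK2 differed by -1.40 ± 0.221 and KLK4 by -2.07 ± 0.168. The KLK4 difference between 22Rv1 and LNCaP lost its call without LNCaP DMSO replicate 2 (0.40, adjusted p = 0.0640) or 3 (0.37, adjusted p = 0.0815) or 22Rv1 DMSO replicate 1 (0.36, adjusted p = 0.0855). Scaling libraries to the same total moved the median of all genes by 0.21 in LNCaP95 against LNCaP and by 0.14 in LNCaP95 against 22Rv1, and turned none of the 9 directions.

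**Figure D2:**
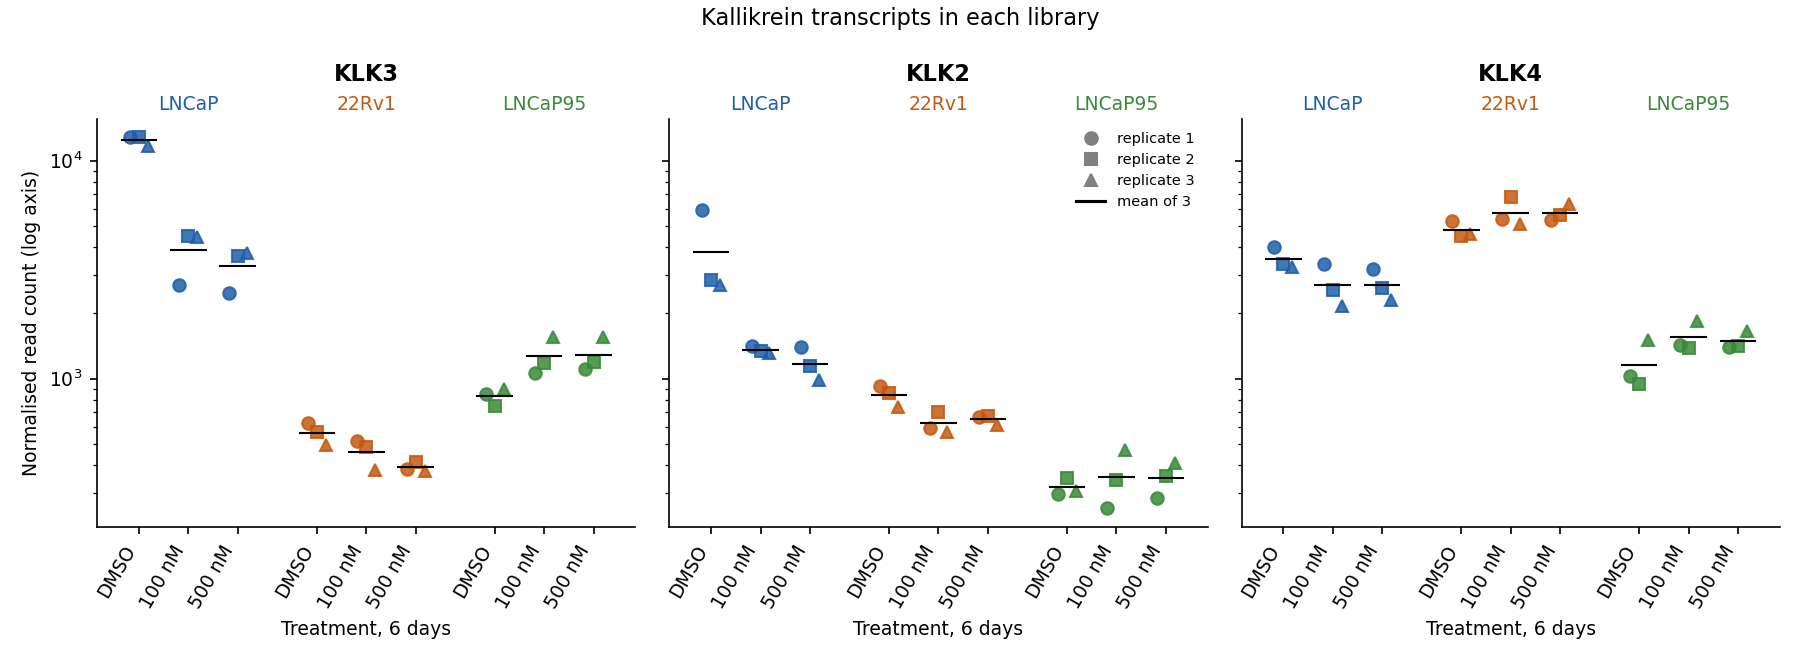
Normalised read counts (log axis) of KLK3, KLK2 and KLK4 in each of the 27 libraries, by line and by treatment; symbols are replicates and bars the mean of 3. The treated LNCaP libraries lie below DMSO for KLK3 and KLK2, the treated LNCaP95 libraries lie above DMSO for KLK3, and KLK4 is highest in 22Rv1.

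Levels of different genes were compared per kilobase of the longest coding transcript (KLK3 1664 bases, KLK2 3019 bases, KLK4 1347 bases). Ratios and shares of reads, given further below, were not corrected for length. On that scale KLK4 led in LNCaP95 with DMSO, at 860 ± 224 normalised counts per kilobase, followed by KLK3 at 502 ± 45.8 and KLK2 at 105 ± 9.76 (SD, n = 3). In 22Rv1 with DMSO, KLK4 led at 3557 ± 313, with KLK3 at 338 ± 39.4 and KLK2 at 279 ± 31.0. In LNCaP with DMSO, KLK3 led at 7483 ± 390, with KLK4 at 2637 ± 313 and KLK2 at 1267 ± 609. With all annotated exons as the length, an alternative chosen after seeing the data, KLK3 fell below KLK2 in 22Rv1 with DMSO (log2 ratio -0.12, against 0.28 with the transcript), and the other orders just named were kept. Together the 3 genes took 0.0128% ± 0.00215 of all reads in LNCaP95 with DMSO, 0.0310% ± 0.00186 in 22Rv1 and 0.0945% ± 0.0116 in LNCaP.

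In LNCaP, the comparison of each dose with DMSO asked whether FASN inhibition alters androgen-driven transcripts in the androgen-sensitive line. KLK3 and KLK2 fell strongly at both doses, and KLK4 moved less. KLK3, the PSA gene, had 2482, 3637 and 3752 normalised counts at 500 nM and 12816, 12836 and 11703 with DMSO. Every treated library was below every DMSO library, and treated replicate 1 was the lowest. The log2 fold change was -1.94 ± 0.198 (3.84-fold lower, adjusted p = 9.72e-05, limma). KLK2, a protease that activates the KLK3 precursor, had 1395, 1140 and 982 at 500 nM and 5945, 2840 and 2687 with DMSO. These groups did not overlap either, and the spread lay mostly in DMSO replicate 1. The log2 fold change of KLK2 was -1.62 ± 0.247 (3.07-fold lower, adjusted p = 0.00122). KLK4, the other activator, had 3194, 2611 and 2289 at 500 nM and 4033, 3375 and 3249 with DMSO. The KLK4 groups were separated by a narrow gap, and the log2 fold change of -0.40 ± 0.164 did not pass (adjusted p = 0.103). Same-numbered libraries deviated together weakly in this comparison, with correlations of 0.131 to 0.316, against 0.131 for 500 nM replicate 2 with DMSO replicate 3. With the replicate number as a block KLK4 was called lower at the same size (limma, adjusted p = 0.00412). That fit also held the 100 nM libraries, whose numbers did not pair with those of DMSO. Of all 12837 genes tested, 9.83% were called lower and 11% higher, while 2 of the 3 kallikreins were called lower. Groups lay apart with all treated libraries lower in 21.3% of genes, and did so for all 3 kallikreins.

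At 100 nM, which shares its DMSO libraries with the 500 nM comparison, KLK3 had 2702, 4496 and 4482 normalised counts in the treated LNCaP libraries, all below DMSO, a log2 fold change of -1.71 ± 0.198 (adjusted p = 0.000246, limma). KLK2 had 1410, 1334 and 1311 at 100 nM, also all below DMSO, a log2 fold change of -1.40 ± 0.247 (adjusted p = 0.00268). KLK4 had 3350, 2555 and 2153 at 100 nM, and replicate 1 lay inside the DMSO range. The KLK4 log2 fold change was -0.42 ± 0.164 (adjusted p = 0.0807), and without 100 nM replicate 1 KLK4 was called lower (-0.59, adjusted p = 0.0194). At 100 nM 11.6% of genes were called lower and 13.7% higher, and again 2 of the 3 kallikreins were called lower. Treated libraries all lay below DMSO in 18.6% of genes.

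Summed levels of some marker lists of other cell types also shifted in LNCaP, but few of their genes passed the filter. These were 3 of 6 stromal, 1 of 4 blood cell, 1 of 4 basal and 2 of 6 neuroendocrine markers. The summed level of 6 stromal markers was 440 to 622 at 500 nM, against 276 to 320 with DMSO, with COL1A2 and DCN at 0 in all LNCaP libraries. The sum of 4 blood cell markers was 63.4 to 77.0 at 500 nM, against 10.99 to 28.4 with DMSO. The sum of 4 basal markers was 3.31 to 3.91 at 500 nM, against 11.4 to 19.6 with DMSO, with TP63 at 0 throughout. The sum of 6 neuroendocrine markers was 425 to 568 at 500 nM, which overlapped the 238 to 471 with DMSO. The 7 luminal markers summed to 51003 to 52746 at 500 nM, inside the DMSO range of 45900.4 to 53277. The part of these shifts in the kallikrein result was not tested.

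In 22Rv1, the same question was put to a castration-resistant line, and the kallikreins changed little. KLK3 had 383, 415 and 379 normalised counts at 500 nM and 625, 568 and 494 with DMSO. The groups did not overlap, and the log2 fold change of -0.51 ± 0.137 passed narrowly (1.43-fold lower, adjusted p = 0.0431, limma). KLK2 had 664, 671 and 615 at 500 nM and 928, 857 and 743 with DMSO, again with no overlap, but its log2 fold change of -0.37 ± 0.118 did not pass (adjusted p = 0.0823). KLK4 had 5337, 5648 and 6348 at 500 nM and 5274, 4497 and 4604 with DMSO. Every treated library was above every DMSO library, and the log2 fold change of 0.27 ± 0.119 did not pass (adjusted p = 0.199). Of 13563 genes, 3.5% were called lower and 3.47% higher, and 1 of the 3 kallikreins was called lower. Treated libraries all lay below DMSO in 16% of genes and all above it in 15.2%. The KLK3 call was lost without any 1 of its 6 libraries (-0.60 to -0.43, adjusted p = 0.0519 to 0.134), with no filter on low values (adjusted p = 0.0576) and with all 27 libraries in 1 fit (adjusted p = 0.0812). KLK2 at 500 nM was called lower with libraries scaled to the same total (-0.46, adjusted p = 0.0205) and by DESeq2 (-0.37, adjusted p = 0.0437). The 7 luminal markers summed to 57815 to 61057 at 500 nM, against 51924 to 56309 with DMSO, and the 6 stromal markers to 305 to 378 at 500 nM, against 373 to 408 with DMSO, and their part in the result was not tested.

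At 100 nM in 22Rv1, set against the same DMSO libraries, KLK2 had 593, 707 and 570 normalised counts, all below DMSO, and was called lower (-0.44 ± 0.118, adjusted p = 0.0480, limma). KLK3 had 519, 487 and 379 at 100 nM, overlapping DMSO, with a log2 fold change of -0.29 ± 0.137 (adjusted p = 0.241). KLK4 had 5409, 6807 and 5135 at 100 nM, also overlapping DMSO, with a log2 fold change of 0.26 ± 0.119 (adjusted p = 0.220). At this dose 3.36% of genes were called lower and 3.19% higher, with 1 of the 3 kallikreins called lower, and treated libraries all lay below DMSO in 13.7% of genes. The KLK2 call was lost without any 1 of the DMSO libraries and without 100 nM replicate 1 or 3 (-0.52 to -0.36, adjusted p = 0.0528 to 0.184), and kept without 100 nM replicate 2 (-0.53, adjusted p = 0.0188). It was also lost with no filter (adjusted p = 0.0623), with TMM factors (adjusted p = 0.0558) and with all 27 libraries in 1 fit (adjusted p = 0.249).

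In LNCaP95, the other castration-resistant line, KLK3 and KLK4 were called higher and KLK2 was not called. KLK3 had 1113, 1197 and 1559 normalised counts at 500 nM and 854, 751 and 900 with DMSO. All treated libraries were above all DMSO libraries, and the log2 fold change was 0.61 ± 0.142 (1.53-fold higher, adjusted p = 0.00266, limma). KLK4 had 1398, 1407 and 1659 at 500 nM and 1027, 944 and 1503 with DMSO. DMSO replicate 3 lay among the treated libraries, so the groups overlapped, and KLK4 was called higher by 0.39 ± 0.153 (adjusted p = 0.0481). Same-numbered libraries deviated together in this line. Each treated KLK4 value was above the DMSO value of its replicate number, and with that number as a block KLK4 stayed called. KLK2 had 283, 358 and 411 at 500 nM and 296, 351 and 307 with DMSO, groups that overlapped, with a log2 fold change of 0.13 (95% interval -0.28 to 0.54, adjusted p = 0.593). In this line 28.2% of 12844 genes were called higher and 24.1% lower at 500 nM, and 2 of the 3 kallikreins were called higher. Treated libraries all lay above DMSO in 31.6% of genes. The KLK4 call held without DMSO replicate 3 (0.59, adjusted p = 0.00180) and was lost without any other 1 of the 6 libraries (0.26 to 0.43, adjusted p = 0.0553 to 0.202), with no filter (adjusted p = 0.0633), at equal totals (adjusted p = 0.0891), with TMM factors (adjusted p = 0.0549), by edgeR (adjusted p = 0.0675) and with all 27 libraries in 1 fit (adjusted p = 0.0643). In LNCaP95 the luminal markers summed to 59066 to 60317 at 500 nM, against 52194 to 53300.0 with DMSO, and the part of this shift in the kallikrein result was not tested.

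At 100 nM, against the same DMSO libraries, KLK3 had 1062, 1183 and 1549 normalised counts in LNCaP95, all above DMSO, a log2 fold change of 0.58 ± 0.142 (adjusted p = 0.00372, limma). KLK4 had 1431, 1376 and 1834 at 100 nM, overlapping DMSO through its replicate 3, and was called higher by 0.44 ± 0.153 (adjusted p = 0.0289). Here too each treated KLK4 value was above the DMSO value of its replicate number, and KLK4 stayed called with that number as a block. KLK2 had 254, 341 and 472 at 100 nM, which spanned the DMSO range on both sides (0.12, 95% interval -0.29 to 0.53, adjusted p = 0.623). The share of genes called higher was 28.2% at this dose too, and of those called lower 24.1%, and 2 of the 3 kallikreins were called higher. Treated libraries all lay above DMSO in 32.2% of genes. The KLK4 call at 100 nM was lost without DMSO replicate 1 (adjusted p = 0.0971) or 2 (adjusted p = 0.133), without 100 nM replicate 3 (adjusted p = 0.133) and at equal totals (adjusted p = 0.0614).

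Over all 9 groups, the mean KLK3 level was highest in LNCaP with DMSO, at 12452 ± 648 normalised counts (SD, n = 3). LNCaP at 100 nM (3893 ± 1032) and at 500 nM (3290 ± 702) came next and overlapped each other. LNCaP95 at 500 nM (1289.8 ± 237) and at 100 nM (1265 ± 254) also overlapped and lay above LNCaP95 with DMSO (835 ± 76.2), and the 22Rv1 groups were lowest. Even at its lowest in treated LNCaP, KLK3 thus remained above every library of the other lines. KLK2 was lowest in LNCaP95 and highest in LNCaP under each treatment, with 1172 ± 209 in LNCaP at 500 nM just above 842 ± 93.5 in 22Rv1 with DMSO, and the 3 LNCaP95 groups overlapped. KLK4 was highest in 22Rv1 at 100 nM (5784 ± 897) and 500 nM (5778 ± 518), which overlapped, and lowest in the 3 LNCaP95 groups.

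Per kilobase of the longest coding transcript, KLK3 at 1977 ± 422 and KLK4 at 2003 ± 341 normalised counts per kilobase were nearly level in LNCaP at 500 nM, whereas KLK3 led with DMSO. With all exons as the length, KLK3 was at 709 and KLK4 at 1394 per kilobase at 500 nM. KLK2 was at 388 ± 69.1 per kilobase in LNCaP at 500 nM. In 22Rv1 at 500 nM, KLK4 was at 4289 ± 385, KLK3 at 236 ± 11.9 and KLK2 at 215 ± 9.97 per kilobase, and with all exons as the length KLK3 fell below KLK2 (log2 ratio -0.27, against 0.13).

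**Figure D3:**
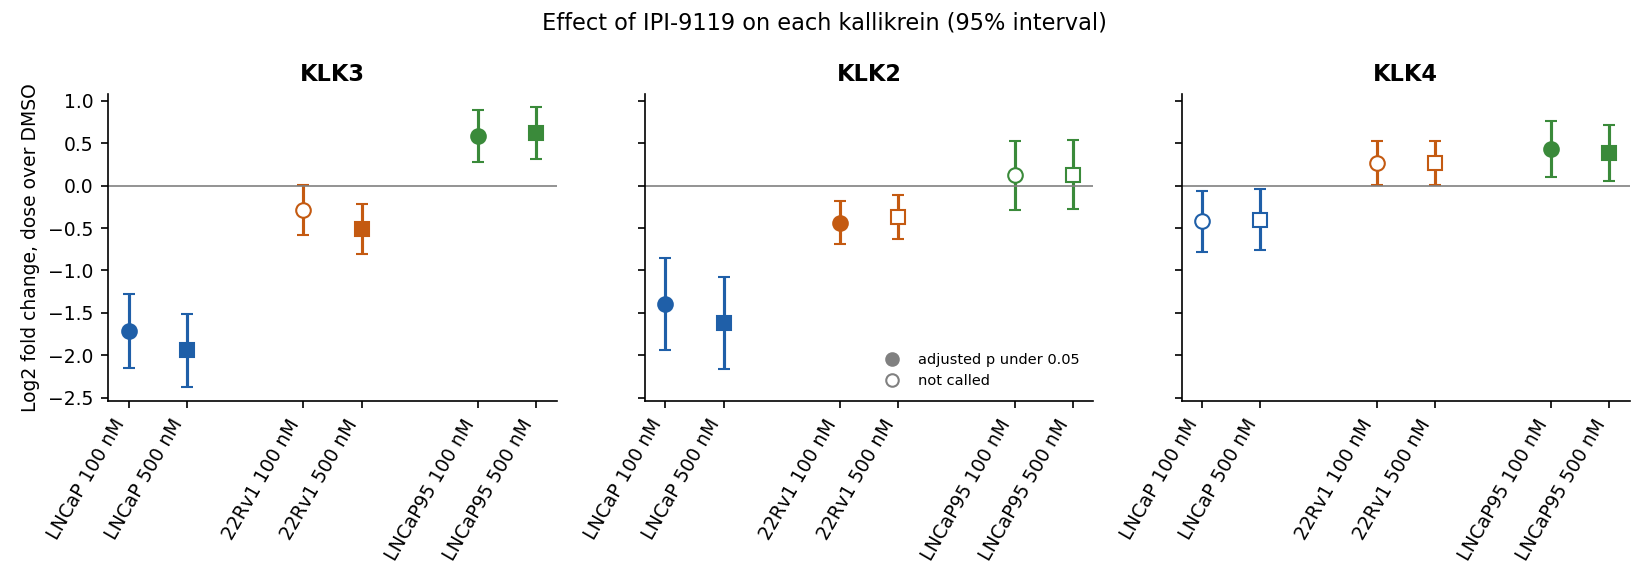
Log2 fold change of each kallikrein at 100 nM (circles) and 500 nM (squares) over DMSO in each line, with 95% intervals; filled symbols have an adjusted p under 0.05 (limma). KLK3 and KLK2 lie well below 0 in LNCaP, KLK3 lies above 0 in LNCaP95, and the KLK4 intervals stay within 1 log2 unit of 0.

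No kallikrein was called between 500 nM and 100 nM in any line, in a comparison that asked whether the effect grows with dose. The largest of the 9 differences was that of KLK3 in LNCaP, -0.23 ± 0.198 on the log2 scale (95% interval -0.66 to 0.21). KLK2 in LNCaP differed by -0.22 ± 0.247 (95% interval -0.76 to 0.32) and KLK3 in 22Rv1 by -0.22 ± 0.137. The LNCaP intervals of both genes include 0 and also sizeable steps. Of the 9 tests, 0 passed by limma, edgeR or DESeq2, and 0 had an unadjusted p under 0.05. Across all genes this step called 1 gene in LNCaP (0.00779%) and 0 in 22Rv1 and in LNCaP95. In LNCaP, DESeq2 called 75 genes, and limma called 755 with replicates 2 and 3 only.

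The difference of the drug effect between lines was tested directly as an interaction in a fit of all 27 libraries. In LNCaP95 minus LNCaP at 500 nM, where 38.9% of 11761 genes were called, KLK3 differed by 2.56 ± 0.255 on the log2 scale (adjusted p = 5.75e-08, limma), KLK2 by 1.75 ± 0.311 (adjusted p = 9.53e-05) and KLK4 by 0.79 ± 0.236 (adjusted p = 0.00993). At 100 nM, with 45.6% of genes called, the same differences were 2.3 ± 0.255, 1.52 ± 0.311 and 0.86 ± 0.236, each called. All 3 genes thus responded higher in LNCaP95 than in its parent line, KLK3 with the widest gap.

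In 22Rv1 minus LNCaP at 500 nM, where 14.3% of genes were called, KLK3 differed by 1.43 ± 0.255 (adjusted p = 0.000439, limma) and KLK2 by 1.25 ± 0.311 (adjusted p = 0.00766). KLK4 differed by 0.67 ± 0.236 and did not pass (adjusted p = 0.0572), but did without LNCaP 500 nM replicate 1 (0.80, adjusted p = 0.0314), without 22Rv1 DMSO replicate 1 (adjusted p = 0.0478) and by DESeq2 (adjusted p = 0.0426). At 100 nM, with 19.1% called, KLK3 differed by 1.42 ± 0.255 (adjusted p = 0.000325), KLK2 by 0.97 ± 0.311 (adjusted p = 0.0301) and KLK4 by 0.68 ± 0.236 (adjusted p = 0.0430). The KLK2 difference lost its call without LNCaP DMSO replicate 1, where it was 0.60 (adjusted p = 0.0782), and without LNCaP 100 nM replicate 2 (adjusted p = 0.0565) or 3 (adjusted p = 0.0529), 22Rv1 DMSO replicate 3 (adjusted p = 0.0743) or 22Rv1 100 nM replicate 2 (adjusted p = 0.0608). The KLK4 difference kept its call only without LNCaP 100 nM replicate 1, 22Rv1 DMSO replicate 1 or 22Rv1 100 nM replicate 3, and otherwise ran from 0.54 to 0.75 (adjusted p = 0.0511 to 0.123). Equal totals moved the median of all genes by -0.16 at 500 nM and -0.13 at 100 nM in this pair of lines, kept the directions of the kallikreins, and took the 100 nM calls of KLK2 (0.83, adjusted p = 0.0556) and KLK4 (0.55, adjusted p = 0.0865).

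In LNCaP95 minus 22Rv1, the castration-resistant pair, KLK3 again differed, by 1.13 ± 0.255 at 500 nM (adjusted p = 0.00249, limma, 25.4% of genes called) and by 0.87 ± 0.255 at 100 nM (adjusted p = 0.0147, 24.6% called). KLK2 differed by 0.50 at 500 nM (95% interval -0.14 to 1.14, adjusted p = 0.253) and by 0.55 at 100 nM (95% interval -0.09 to 1.19, adjusted p = 0.200). KLK4 differed by 0.12 at 500 nM (95% interval -0.37 to 0.60, adjusted p = 0.756) and by 0.17 at 100 nM (95% interval -0.31 to 0.66, adjusted p = 0.640). The intervals of KLK2 and KLK4 include 0 and also sizeable differences.

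Ratios within a library compare the members free of library scaling. The log2 ratio of KLK4 over KLK3 was 0.36, -0.48 and -0.71 in LNCaP at 500 nM and -1.67, -1.93 and -1.85 with DMSO, so every treated library was higher. In 22Rv1 it was 3.80, 3.76 and 4.06 at 500 nM and 3.08, 2.98 and 3.22 with DMSO, again without overlap. In LNCaP95 it was 0.33, 0.23 and 0.09 at 500 nM and 0.27, 0.33 and 0.74 with DMSO, where the groups overlapped. The mean difference over the lines was 0.70 at 500 nM (exact permutation within lines, two-sided, adjusted p = 0.016 over 6 tests), made up of 1.54 in LNCaP, 0.78 in 22Rv1 and -0.23 in LNCaP95. At 100 nM it was 0.57 (exact permutation, adjusted p = 0.0169), with 1.29, 0.55 and -0.15 in the same order of lines. Within 1 line an exact permutation of 3 against 3 libraries cannot pass the threshold, so the lines were given no test of their own.

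The log2 ratio of KLK4 over KLK2 was 1.194, 1.195 and 1.22 in LNCaP at 500 nM and -0.56, 0.25 and 0.27 with DMSO, and the treated libraries were the higher ones. In 22Rv1 it was 3.01, 3.07 and 3.36 at 500 nM and 2.51, 2.39 and 2.63 with DMSO, also without overlap. In LNCaP95 it was 2.303, 1.97 and 2.01 at 500 nM and 1.79, 1.42 and 2.29 with DMSO, where DMSO replicate 3 lay among the treated libraries. The mean difference was 0.70 at 500 nM and 0.66 at 100 nM (exact permutation, two-sided, adjusted p = 0.003 each), and it was above 0 in all 3 lines at both doses.

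The log2 ratio of KLK2 over KLK3 shifted in different directions in the lines. It was -0.83, -1.67 and -1.93 in LNCaP at 500 nM and -1.11, -2.18 and -2.12 with DMSO, where the groups overlapped. Each treated LNCaP library was nevertheless above the DMSO library of its replicate number. In 22Rv1 it was 0.79, 0.69 and 0.70 at 500 nM and 0.57, 0.59 and 0.59 with DMSO, with every treated library higher. In LNCaP95 it was -1.97, -1.74 and -1.92 at 500 nM and -1.53, -1.09 and -1.55 with DMSO, with every treated library lower. Its mean difference was -0.01 at 500 nM (exact permutation, adjusted p = 0.970) and -0.10 at 100 nM (exact permutation, adjusted p = 0.682), with 0.32 in LNCaP, 0.14 in 22Rv1 and -0.49 in LNCaP95 at 500 nM. In composition, KLK4 made up 37.7% ± 6.61 of the reads of the 3 genes in LNCaP at 500 nM and 17.9% ± 0.412 with DMSO (SD, n = 3), while the 3 genes together took 0.0359% ± 0.000781 of all reads at 500 nM and 0.0945% ± 0.0116 with DMSO. In 22Rv1 KLK4 made up 84.6% ± 1.58 at 500 nM and 77.3% ± 1.45 with DMSO, and in LNCaP95 47.8% ± 2.18 at 500 nM and 49.6% ± 5.11 with DMSO. These shares are not corrected for transcript length, so they compare treatments and not levels of different genes. The KLK4 over KLK3 calls were lost when all libraries of any 1 replicate number were left out (exact permutation, adjusted p = 0.0556 to 0.153 over both doses), and those of KLK4 over KLK2 without number 1 (adjusted p = 0.0833) or 2 (adjusted p = 0.0556). Leaving out a number leaves far fewer relabellings and so raises the smallest p the test can reach. A call stayed within reach, since KLK4 over KLK2 kept its call without number 3 at both doses (exact permutation, adjusted p = 0.0278). The part of that limit in the losses was not tested. With a number left out, the mean KLK4 over KLK3 difference stayed at 0.58 to 0.82 at 500 nM and 0.44 to 0.71 at 100 nM. The KLK4 over KLK3 calls were also lost when only LNCaP replicates 2 and 3 were used for that line.

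**Figure D4:**
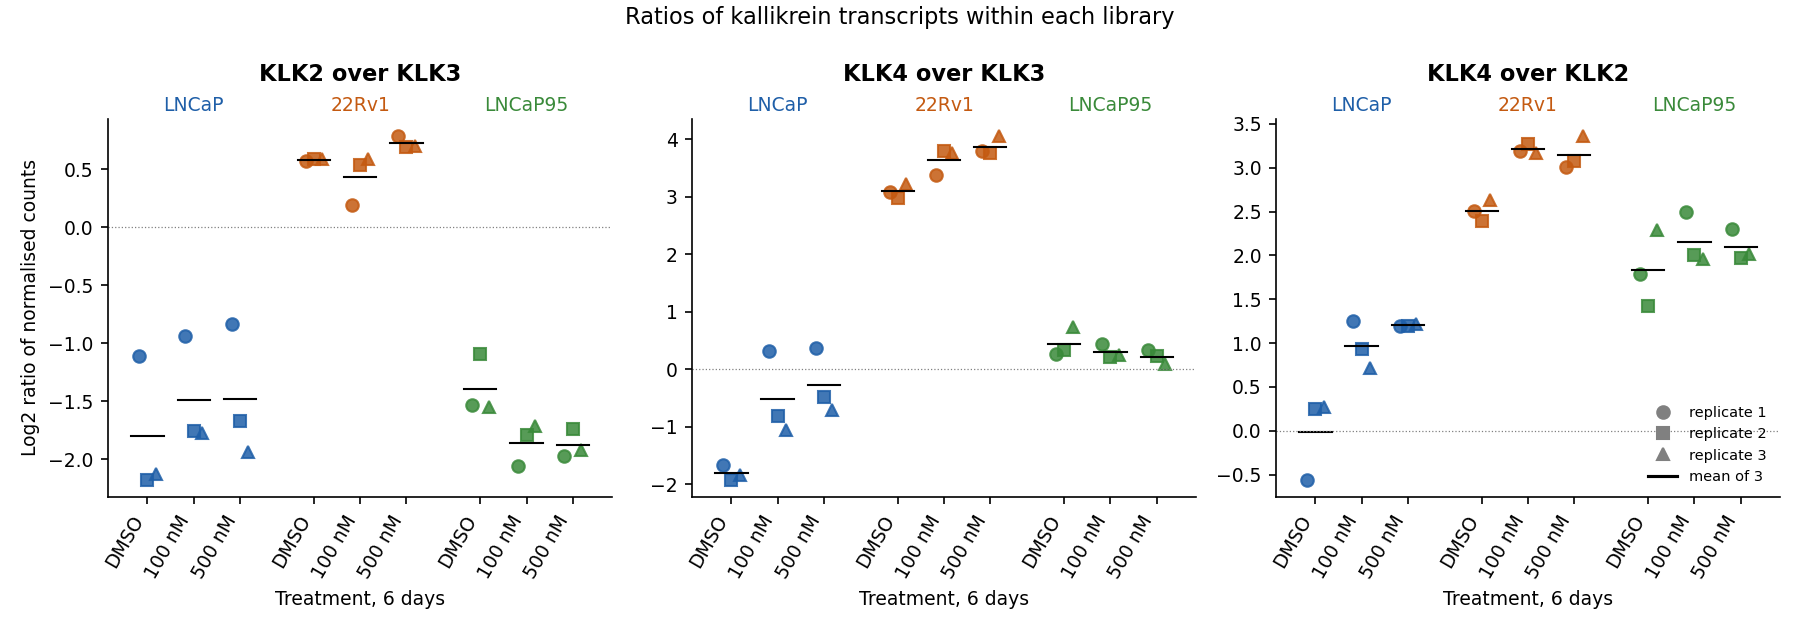
Log2 ratios of KLK2 over KLK3, KLK4 over KLK3 and KLK4 over KLK2 in each library, by line and treatment; symbols are replicates and bars the mean of 3. In LNCaP and 22Rv1 both KLK4 ratios are higher in every 500 nM library than in every DMSO library, and in LNCaP95 they overlap with DMSO.

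Transcription factors and cofactors known to act on androgen-induced genes were listed as 13 genes. Over all genes tested, 11% were called higher and 9.83% lower in LNCaP at 500 nM, 3.47% higher and 3.5% lower in 22Rv1, and 28.2% higher and 24.1% lower in LNCaP95. Of 12 listed genes tested in LNCaP at 500 nM, 0 were called higher and 3 lower, with a median of -0.12 against -0.01 over all genes tested (limma). They were FOXA1, a pioneer factor that opens chromatin (-0.51 ± 0.0905, adjusted p = 0.00282), SPDEF, a prostate ETS factor (-0.51 ± 0.122), and HOXB13, a prostate homeobox factor (-0.40 ± 0.115). With the replicate number as a block 5 were called lower. In 22Rv1, 0 of 13 were called by limma or edgeR at 500 nM and 1 by DESeq2, with 3 at an unadjusted p under 0.05. In LNCaP95, 1 was called higher and 5 lower of 13 (median 0.04 against 0.03 over all genes), led by KDM1A, a histone demethylase (-0.70 ± 0.0821), and HOXB13 (-0.32 ± 0.0873), and with the block 2 higher and 6 lower.

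Other androgen-induced genes did not move as one with the kallikreins. At 500 nM the background of calls over all genes was 11% higher and 9.83% lower in LNCaP, 3.47% and 3.5% in 22Rv1 and 28.2% and 24.1% in LNCaP95. Of 25 tested in LNCaP at 500 nM, 2 were called higher and 6 lower (median -0.06 against -0.01 over all genes), and with the replicate number as a block 6 higher and 6 lower. TMPRSS2, a membrane protease whose promoter is fused to ERG in many tumours, fell by 1.24 ± 0.18 (adjusted p = 0.000937, limma). CENPN, a centromere protein gene, fell by 0.72 ± 0.123, and CAMKK2, a kinase, by 0.52 ± 0.107, whereas ADAM7 rose by 1.78 ± 0.357. KLK3 had the most negative log2 fold change of these genes and KLK2 the next. In 22Rv1, 2 of 23 were called higher and 3 lower (median 0.04 against 0.00 over all genes), with SLC45A3, also called prostein, lower by 1.05 on the log2 scale (-1.05 ± 0.136) and ACSL3, an acyl-CoA synthetase, higher (0.97 ± 0.11). In LNCaP95, 9 of 24 were called higher and 5 lower (median 0.06 against 0.03 over all genes). ACPP, prostatic acid phosphatase, rose by 1.497 ± 0.0907 and STEAP2, a metalloreductase, by 1.10 ± 0.0836, and FKBP5, a co-chaperone of steroid receptors, fell by 1.04 ± 0.0869. Of 5 androgen-repressed genes, 3 of 5 tested were called higher and 0 lower in LNCaP (median 1.68), 0 of 4 higher and 1 lower in 22Rv1 (median 0.01), and 3 of 4 higher and 0 lower in LNCaP95 (median 0.65). Of those in LNCaP, NOV passed the filter only through the 500 nM libraries, where it is high, so nothing is read from its call. UGT2B15, which inactivates androgen by glucuronidation and has close paralogs that may share its reads, was at 1.84 ± 0.463 in LNCaP, -0.53 ± 0.12 in 22Rv1 and 0.85 ± 0.0993 in LNCaP95.

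**Figure D5:**
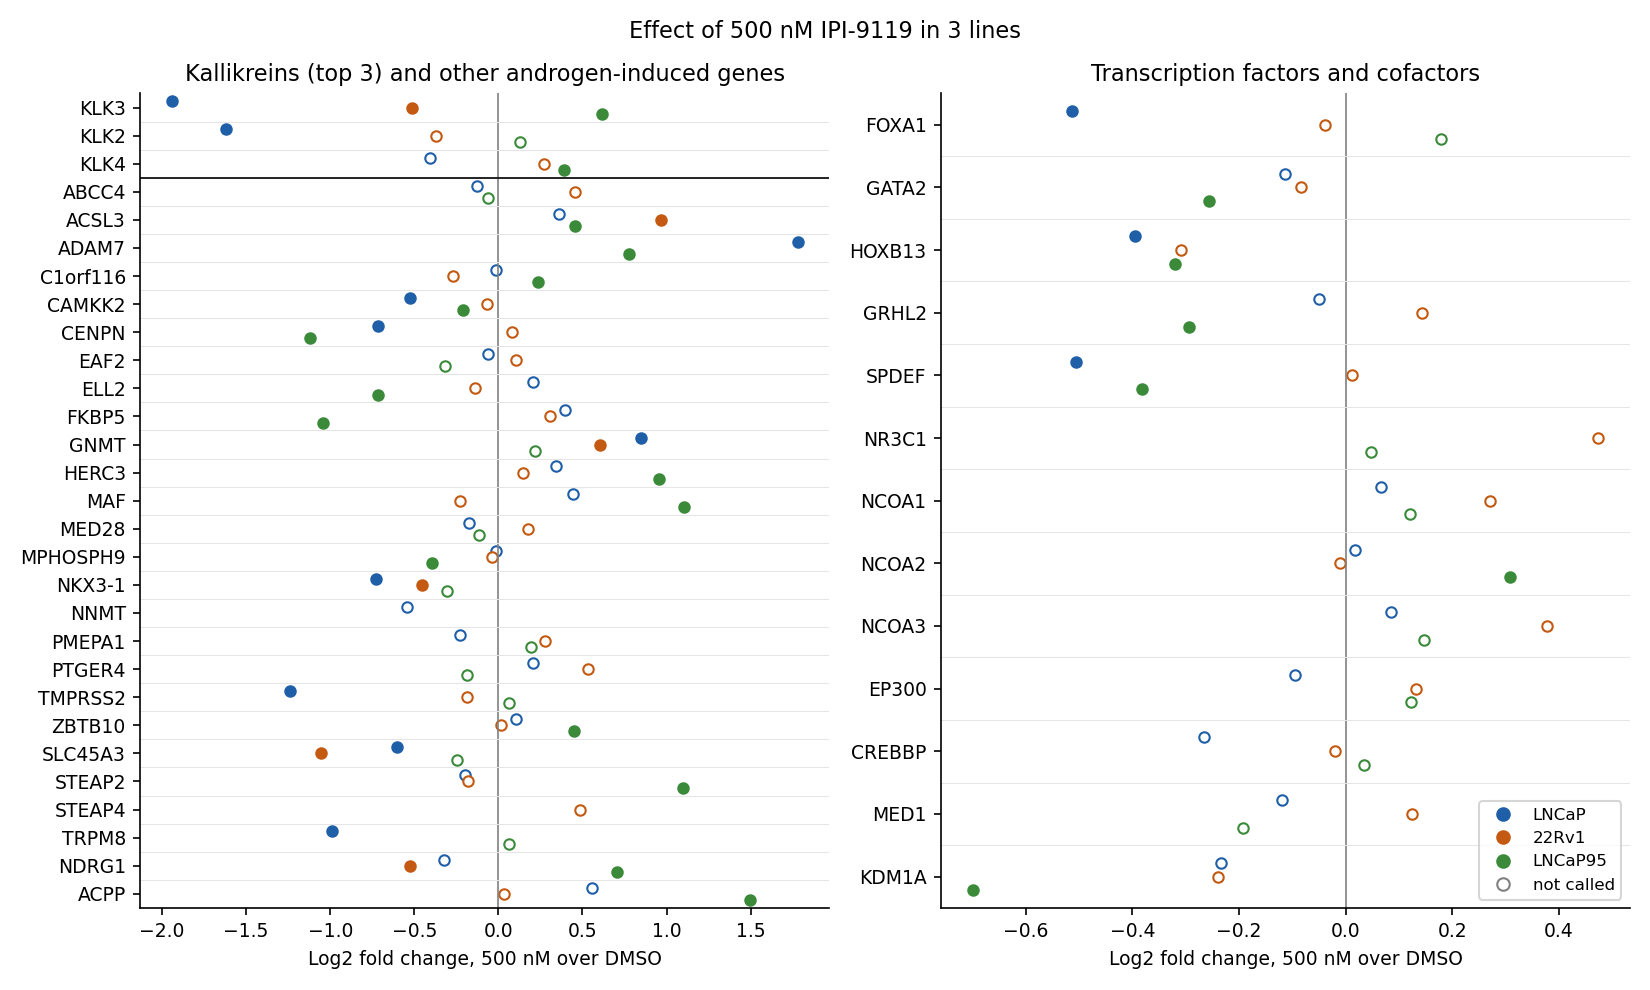
Log2 fold change at 500 nM over DMSO in LNCaP (blue), 22Rv1 (orange) and LNCaP95 (green) for the kallikreins and 26 listed androgen-induced genes (left) and for 13 transcription factors and cofactors (right); filled symbols have an adjusted p under 0.05 (limma) and genes below the filter have no symbol. KLK3 and KLK2 are the lowest points in LNCaP, and no transcription factor or cofactor is called in 22Rv1.

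Of 13 other kallikrein genes listed, 12 were in the table and few were expressed. KLK15, a neighbour of KLK3 in the same gene cluster, was tested in all 3 lines. It averaged 32.6 ± 3.29 normalised counts at 500 nM in LNCaP and 74.6 ± 16.5 with DMSO, and was called lower (-1.15 ± 0.259, adjusted p = 0.0100, limma). In 22Rv1 it differed by -0.56 ± 0.219 (adjusted p = 0.148) and in LNCaP95 by -0.18 ± 0.266 (adjusted p = 0.589). In 22Rv1 6 were tested and 0 called at 500 nM by limma, edgeR or DESeq2, with 2 at an unadjusted p under 0.05. Over all genes there, 3.47% were called higher and 3.5% lower, so 0 of 6 lies near those shares. KLK1, tissue kallikrein, averaged 772 ± 45.1 at 500 nM and 851 ± 150 with DMSO in 22Rv1, and reached at most 6.18 in any LNCaP library and 3.52 in any LNCaP95 library. KLK11 averaged 238 at 500 nM and 288 with DMSO in 22Rv1.

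Proteins that inhibit kallikreins or are cut by them were listed as 7 genes each. Their counts stand beside 11% of all genes called higher and 9.83% lower in LNCaP at 500 nM, 3.47% and 3.5% in 22Rv1, and 28.2% and 24.1% in LNCaP95. IGFBP3, a binding protein of insulin-like growth factors that PSA is known to cut, averaged 356 normalised counts at 500 nM and 55.7 with DMSO in LNCaP, a log2 fold change of 2.73 ± 0.276 (limma, adjusted p = 9.11e-05). It also rose in 22Rv1, by 2.41 ± 0.201, and in LNCaP95, by 1.35 ± 0.413 (adjusted p = 0.0145). In all, 2 of 3 substrate genes tested were called higher and 0 lower in LNCaP (median 0.45), and 1 of 4 higher and 0 lower in 22Rv1 (median 0.49). In LNCaP95, 2 of 5 were called higher and 1 lower (median -0.11). Of these, PTHLH (higher) and SEMG1 (lower) passed the filter only through the groups where they are high, so nothing is read from their calls. F2RL1, a protease-activated receptor that KLK4 is known to cut, rose by 0.45 ± 0.141 in LNCaP (adjusted p = 0.0411). SEMG1, a semenogelin, had 1.85, 1.03 and 0 normalised counts at 500 nM in LNCaP95 and 11.4, 11.7 and 18.2 with DMSO. Of the inhibitors, 0 of 4 tested were called higher and 1 lower in LNCaP, 1 of 4 higher and 0 lower in 22Rv1, with medians of -0.12 in both. In LNCaP95, 3 of 4 were called higher and 0 lower (median 0.84). That count and median include SERPINA3, which passed the filter only through the groups where it is high, so nothing is read from its call. SPINT1, a serine protease inhibitor, rose there by 0.75 ± 0.0880 on the log2 scale (adjusted p = 1.49e-05, limma) and SERPINB6, an intracellular serpin, by 0.29 ± 0.0756 (adjusted p = 0.00634). SERPINA3, the serpin that binds PSA in blood, had 169, 91.6 and 73.7 normalised counts at 500 nM in LNCaP95 and 15.8, 6.26 and 2.28 with DMSO, and it passed the filter there only through the treated groups, so no test is given. In LNCaP it differed by -0.11 ± 0.327. Of 5 secretory genes of the prostate, 1 of 3 tested, MSMB, was called higher in LNCaP by limma, where edgeR and DESeq2 called 0 of the list and the replicate block called 2. MSMB had 17.7, 12.5 and 19.0 at 500 nM in LNCaP and 11.5, 2.84 and 3.00 with DMSO, and passed the filter mainly through the treated groups, so nothing is read from its call. Of that list, 0 of 3 were called in 22Rv1 by limma, edgeR or DESeq2, with 0 at an unadjusted p under 0.05, and in LNCaP95 ACPP was called higher and AZGP1 lower (-1.24 ± 0.249).

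The likeness of the members was described over the 27 libraries after each line was centred on its own mean, among 11654 genes, and includes the drug effect that the libraries share. KLK2 ranked 48 in likeness to KLK3 (Pearson r = 0.82) and KLK3 ranked 6 in likeness to KLK2. KLK4 was less like KLK3 (r = 0.436) and KLK2 (r = 0.515). Within single lines of 9 libraries, KLK2 and KLK3 had r = 0.85 in LNCaP, 0.787 in 22Rv1 and 0.609 in LNCaP95. KLK4 and KLK3 had r = 0.485 in LNCaP, -0.339 in 22Rv1 and 0.863 in LNCaP95. KLK4 and KLK2 had r = 0.803 in LNCaP, -0.358 in 22Rv1 and 0.418 in LNCaP95. The 5 genes most like KLK3 were ZSCAN18 (r = 0.919), PYCR1 (0.909), PSPH (0.903), GPX8 (0.903) and TSC22D3 (0.902). Those most like KLK2 were MACROD1 (r = 0.849), LETMD1 (0.836), PDE9A (0.833), MAT2A (0.83) and PYCR1 (0.824). Those most like KLK4 were CTSL (r = 0.845), SLC25A6 (0.84), LTBR (0.83), SH3GLB2 (0.828) and GTF2F1 (0.821), none of them among the 5 of KLK3 or KLK2.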

How the data were processed

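Per the labels' protocols, poly(A) RNA was made into directional paired-end libraries. Per the submitters' processing notes, STAR 2.3.1z4, featureCounts and DESeq were used with build hg19. The authors deposited a normalised signal per gene, the count divided by a library size factor. Every value was a whole multiple of the smallest value above 0 of its library (tolerance 1e-06, 100% of values), so whole reads were recovered; in 2 libraries 1 read is worth about 1 unit. The smallest step was 0.757 units and the largest 1.39.

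log2(value + 1) was tested with limma 3.58.1 (R 4.3.3, intensity trend, two-sided), with Benjamini-Hochberg adjustment over all genes kept and a threshold of 0.05. Within a line, genes were kept with a value of 10 or more in at least 3 of its libraries. Line contrasts with DMSO asked this of at least 3 DMSO libraries. Differences of the drug effect asked it of at least 3 libraries in each line. Effects within a line used its 9 libraries, and differences between lines all 27, which share 1 spread. Ratios used an exact permutation test within lines (8000 relabellings, smallest p = 0.00025). The alternatives were another pseudocount, filters, scalings, edgeR 4.0.16 and DESeq2 1.42.0 on recovered reads, 1 fit of 27 libraries, a replicate block and leaving libraries out. edgeR called 2675 genes at 500 nM in LNCaP, 947 in 22Rv1 and 6700 in LNCaP95.

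Replicate numbers, taken from the labels, were checked by the correlation of deviations of same-numbered libraries from their group means. Every pair exceeded 0.1 for 500 nM with DMSO in LNCaP (0.131 to 0.316) and for all comparisons in LNCaP95, but not for 100 nM with DMSO in LNCaP nor in 22Rv1. The members and gene lists were chosen with earlier results of these data known. Named genes were the 3 kallikreins, any gene of the lists, with at most 4 examples of smallest p per list and comparison, and the 5 genes most like each kallikrein among those with a mean of 50 or more. Lengths came from GENCODE by symbol, and promoters from RefSeq, where all 3 genes matched. 1 gene of the lists is not reported here.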

Additional observations from a re-analysis of the deposited data

Results flagged for a closer look

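The effect of IPI-9119 on kallikreins differed between lines by a direct test of the difference (limma, 27 libraries, adjusted p under 0.05). For LNCaP95 minus LNCaP, KLK3 differed by 2.56 at 500 nM and 2.3 at 100 nM on the log2 scale, KLK2 by 1.75 and 1.52, and KLK4 by 0.792 and 0.857. For 22Rv1 minus LNCaP, KLK3 differed by 1.43 at 500 nM and 1.42 at 100 nM, KLK2 by 1.25 and 0.965, and KLK4 by 0.685 at 100 nM. In this pair the 100 nM calls of KLK2 and KLK4 were lost at equal totals. With 1 library left out, KLK2 at 100 nM lost its call in 5 of 12 fits and KLK4 in 9 of 12. For LNCaP95 minus 22Rv1, KLK3 differed by 1.13 at 500 nM and 0.873 at 100 nM. Of all genes, 38.9% were called at 500 nM and 45.6% at 100 nM for LNCaP95 minus LNCaP. The shares were 14.3% and 19.1% for 22Rv1 minus LNCaP, and 25.4% and 24.6% for LNCaP95 minus 22Rv1. Both doses share the DMSO libraries of their line.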

How the results depend on the processing

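Over the 60 kallikrein and ratio results, 458 of 489 values under other settings and 385 of 450 values with a library left out kept their direction and their side of the threshold. The causes of the changes were not tested, except that fits without a library rest on fewer samples. With no filter, KLK3 at 500 nM (-0.51) and KLK2 at 100 nM (-0.44) in 22Rv1, KLK4 at 500 nM in LNCaP95 (0.39) and KLK4 in 22Rv1 minus LNCaP at 100 nM (0.68) lost their calls. At equal totals, KLK2 at 500 nM in 22Rv1 was called (-0.46), and KLK4 in LNCaP95 at 500 nM (0.36) and 100 nM (0.40) and KLK2 (0.83) and KLK4 (0.55) in 22Rv1 minus LNCaP at 100 nM were not. With TMM factors, KLK2 at 100 nM in 22Rv1 (-0.41) and KLK4 at 500 nM in LNCaP95 (0.37) were lost. edgeR lost KLK4 at 500 nM in LNCaP95 (0.36). DESeq2 called KLK2 at 500 nM in 22Rv1 (-0.37) and KLK4 at 500 nM in 22Rv1 minus LNCaP (0.67). For 500 nM against 100 nM, edgeR and DESeq2 turned the uncalled KLK4 in 22Rv1 (-0.0013 by both) and KLK2 in LNCaP95 (-0.029 by edgeR, -0.024 by DESeq2). With all 27 libraries in 1 fit, KLK3 at 500 nM (-0.51) and KLK2 at 100 nM (-0.44) in 22Rv1 and KLK4 at 500 nM in LNCaP95 (0.39) were lost. With the replicate block, KLK4 in LNCaP at 500 nM (-0.40) and 100 nM (-0.42) and KLK4 in 22Rv1 minus LNCaP at 500 nM (0.67) were called, and no other kallikrein call changed. With LNCaP replicates 2 and 3 only, KLK4 was called in LNCaP at 500 nM (-0.44) and 100 nM (-0.50) and in 22Rv1 minus LNCaP at 500 nM (0.71). There KLK2 in 22Rv1 minus LNCaP at 100 nM (0.63) and KLK4 over KLK3 at 500 nM (0.62) and 100 nM (0.45) were lost, and KLK2 over KLK3 at 500 nM turned (0.00097).

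With 1 library left out, KLK4 in LNCaP ran from -0.59 to -0.27 at 100 nM, and from -0.13 to 0.19 for 500 nM against 100 nM. In 22Rv1 minus LNCaP, KLK4 ran from 0.56 to 0.80 at 500 nM and from 0.54 to 0.86 at 100 nM, and KLK2 from 0.60 to 1.17 at 100 nM. KLK4 in 22Rv1 against LNCaP with DMSO ran from 0.36 to 0.53. In 22Rv1, KLK3 at 500 nM ran from -0.60 to -0.43, KLK2 at 100 nM from -0.53 to -0.36 and KLK4 for 500 nM against 100 nM from -0.074 to 0.13. KLK4 in LNCaP95 minus 22Rv1 at 500 nM ran from -0.014 to 0.32. In LNCaP95, KLK4 ran from 0.26 to 0.59 at 500 nM and from 0.30 to 0.64 at 100 nM, and KLK2 at 100 nM from -0.11 to 0.34. For 500 nM against 100 nM there, KLK2 ran from -0.21 to 0.24, KLK3 from -0.11 to 0.19 and KLK4 from -0.13 to 0.080. With all libraries of 1 replicate number left out, the KLK2 over KLK3 ratio difference at 500 nM ran from -0.019 to 0.0016. That of KLK4 over KLK3 ran from 0.58 to 0.82 (500 nM) and 0.44 to 0.71 (100 nM). That of KLK4 over KLK2 ran from 0.60 to 0.82 (500 nM) and 0.47 to 0.89 (100 nM).

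The number of genes called ran from 1475 to 3891 (2671 as reported) at 500 nM and from 1736 to 4617 (3250) at 100 nM in LNCaP, from 384 to 1426 (946) and from 261 to 1335 (889) in 22Rv1, and from 0 to 755 (1) for 500 nM against 100 nM in LNCaP. At equal totals the share of called genes that were higher was 68.9% at 500 nM in LNCaP, against 52.8% as reported, and 26.6% in 22Rv1, against 49.8%. DESeq2 called 1 kallikrein substrate gene at 500 nM in LNCaP95, against 3 by limma.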
